A study of Homo sapiens with 7 samples.

Results

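The comparison described here is that of NKX2-5+ cells with and without alpha-MHC reporter signal (aMHC+ and aMHC-) on day 14 of cardiac differentiation. It rests on 2 of the 7 libraries of the study, chosen by their labels, with 1 library per fraction. All libraries came from the human embryonic stem cell (hESC) line H3 in which eGFP reports NKX2-5 and mCherry reports alpha-MHC. A running number sets the line's label apart from sample to sample, and the samples were taken to be of 1 line. The other libraries are undifferentiated hESC, CD13+/ROR2+ and CD13-/ROR2- cells of day 3, and NKX2-5+ and NKX2-5- cells of day 7. Both day 14 fractions carried the same reporters and were gated as CD13+/ROR2+ and NKX2-5+, so that the mCherry gate is what separates them. The labels call the aMHC+ fraction cardiomyocytes and give the cell type of the aMHC- fraction as unknown. They name no clone, and give no day for the gate on CD13 and ROR2.

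NKX2-5 is a homeodomain transcription factor that is switched on in cardiac progenitors and stays on in heart muscle cells. Alpha-MHC, encoded by MYH6, is a myosin heavy chain of the sarcomere, the unit of contraction in which myosin thick filaments slide along actin thin filaments between Z-discs. Calcium released from the sarcoplasmic reticulum binds troponin C on the thin filament and starts this movement. In the developing heart, progenitors turn on sarcomere genes as they become cardiomyocytes.

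Expression is given in FPKM (fragments scaled by transcript length and library total). Ratios are log2 of (FPKM + 1) in aMHC+ over (FPKM + 1) in aMHC-, after the median gene of the pair was set equal. Before that scaling, the median of 10179 genes of at least 1 FPKM in both lay at -0.20, and this shift was taken out. Small RNA and histone genes were left out of all ratios and made up 5.03% of the FPKM sum in aMHC+ and 22% in aMHC-, where MIR593 alone took 20.4%. From the steps between low values, the aMHC- library was 1.49 times as deep as aMHC+. The absolute depth is not known beyond a minimum number of reads, of 50 bases each, that the labels state for every sample. With 1 library per fraction no spread between replicates is known, no test is possible, and a ratio past a size rule describes these 2 libraries only.

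The labels were first checked on the genes of the sort. NKX2-5 was 63.2 FPKM in aMHC+ and 85.5 in aMHC-, against 0 in hESC, 0.36 and 0 on day 3, 70.2 in day 7 NKX2-5+ and 1.18 in day 7 NKX2-5-. Both day 14 libraries thus held NKX2-5 far above the day 7 NKX2-5- library. Levels set across days are FPKM as deposited, and the median gene of day 7 NKX2-5+ lay at -0.58 (log2) relative to aMHC+. MYH6 was 342 FPKM in aMHC+ and 136 in aMHC-, 531 in day 7 NKX2-5+, 43.4 in day 7 NKX2-5- and at most 0.12 in the 3 earlier libraries. The reporter gate and the MYH6 RNA went the same way (log2 ratio 1.53), and the aMHC- library still held MYH6 at more than the day 7 NKX2-5- library. The gate genes ANPEP (which encodes CD13) and ROR2 were 0.02 and 3.74 FPKM in aMHC+ and 0.07 and 4.16 in aMHC-. ANPEP RNA, at 12.0 FPKM in the day 3 CD13+/ROR2+ library, was therefore nearly absent from both.

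All 9 cardiomyocyte markers (MYH6, NPPA, CRYAB, TNNT2, ACTC1, MYL7, ACTN2, TTN and RYR2) were above 1 FPKM in both day 14 libraries. Their summed level was 6229 FPKM in aMHC+ and 2159 in aMHC-. Markers of most other cells were low in both. Of 7 endothelial markers, only KDR passed 1 FPKM, PECAM1 was at 0 in both, and the sums were 1.71 and 3.26 FPKM. Epicardial markers summed to 5.23 and 5.73, blood markers to 0.06 and 0.07, and stem cell markers to 3.83 and 4.99 FPKM, with POU5F1 at 0.18 and 0. The 6 smooth muscle markers summed to 850 and 964 FPKM, most of it from ACTA2 (348 and 410) and TAGLN (383 and 440). MYH11, the smooth muscle myosin, was 12.2 FPKM in aMHC+ and 5.09 in aMHC- (log2 ratio 1.29), and MYLK 12.9 and 10.2 (0.49). The 7 fibroblast and matrix markers summed to 371 FPKM in aMHC+ and 750 in aMHC-. That difference was carried by COL3A1, COL1A1 and POSTN, while LUM was 5.51 and 7.10 FPKM, PDGFRA 6.68 and 6.75, and DCN 1.97 and 1.44. In bulk RNA, fewer cells of a type and less RNA per cell cannot be told apart. The part that the matrix markers, the unequal depth and MIR593 have in the differences between the fractions was not tested.

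The 2 fractions were close in most of what they expressed. Of 2576 genes of at least 10 FPKM in both libraries, 2425 (94.1%) lay within 1.5-fold of each other, and log2 FPKM correlated at r = 0.970 across these genes, which are not independent replicates. Differences were counted by a pair of size rules. A gene of at least 5 FPKM in the higher library was called at a 4-fold ratio, and a gene of at least 10 FPKM in both was called at a 1.5- to 4-fold ratio. By the first rule 15 of 5615 genes were higher in aMHC+ (0.267%) and 0 were lower (0%). By the second, 70 of 2576 genes were higher (2.72%) and 78 were lower (3.03%). The split depends on the scaling. Both rules together gave 85 genes higher (1.51% of 5615) and 78 lower (1.39%), but 50 and 315 without scaling, 97 and 52 with equal sums of the compared genes, and 333 and 31 with equal sums when small RNA genes, MIR593 among them, were kept. Unnamed genes, such as LOC, LINC and antisense symbols, were left out of the next range. Over the rest of the 5615 genes tested, ratios ran from 3.53 for CRYAB to -1.42 for PFDN6 (2.5 and 9.53 FPKM), a prefoldin subunit. Among all genes of at least 10 FPKM in both, ratios ran from 3.09 for NPPA to -1.06 for LMO2.

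**Figure D1:**
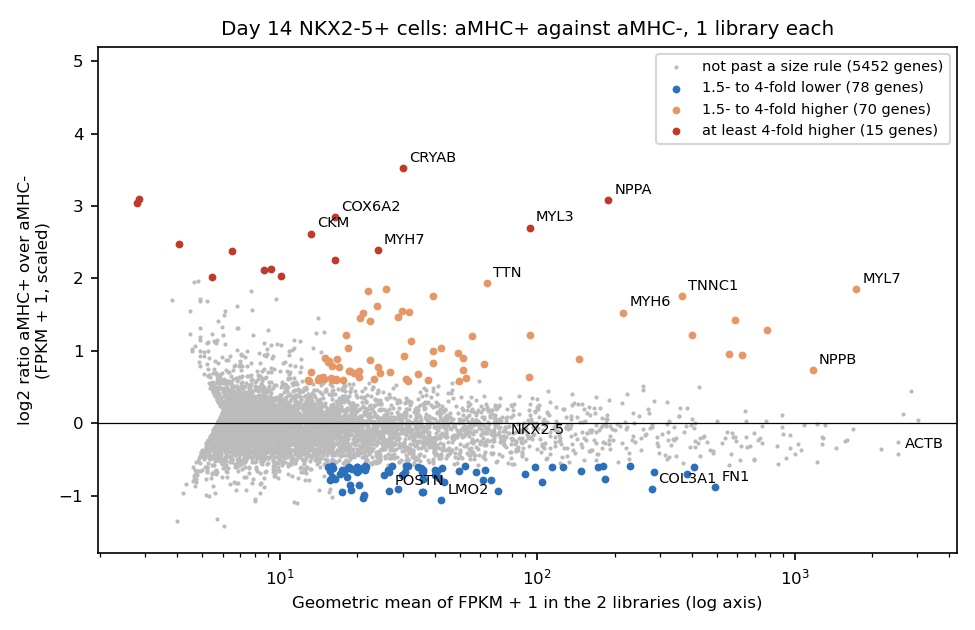
Log2 ratio of aMHC+ over aMHC- (FPKM + 1, scaled) against the geometric mean level of each gene (log axis), 1 library each, for the 5615 genes that reached 5 FPKM in 1 library or both; colours mark the size rules. The 15 genes called 4-fold higher stand above 2, no gene lies at or below -2, and NPPA and MYL7 combine a high ratio with a high level.

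The genes called 4-fold higher were mostly genes of striated muscle. CRYAB, a small heat shock protein that protects the muscle cytoskeleton, had the highest ratio. It was 95 FPKM in aMHC+ and 8.48 in aMHC-, 55.2 in day 7 NKX2-5+, 13.0 in day 7 NKX2-5-, 0 in hESC, and 0.07 and 1.37 on day 3. The aMHC- library was thus below the day 7 NKX2-5- library for CRYAB, and the log2 ratio of the day 14 pair was 3.53. Its head-to-head neighbour HSPB2, chosen after its values were seen, was 3.78 and 0.13 FPKM, too low for either rule. HSPB3, a muscle member of the same protein family, was called 4-fold higher, at 9.40 and 1.86 FPKM. C1orf105, a gene of unknown role, was 8.13 and 0.80 FPKM, and PPP1R14C, an inhibitor of protein phosphatase, 18.1 and 4.30. Of the 15 members of the list of small heat shock proteins and chaperones at 5 FPKM or more, 2 were called. That is a small count to set beside the 1.51% higher of all such genes. HSPB7, another heart member, was 91.4 and 105 FPKM.

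NPPA encodes atrial natriuretic peptide, the hormone of working atrial and embryonic ventricular muscle. It was 514 FPKM in aMHC+, 68.5 in aMHC-, 146 in day 7 NKX2-5+, 3.07 in day 7 NKX2-5-, 0.68 in day 3 CD13+/ROR2+ and 0 in the remaining 2 libraries. The aMHC+ library was the highest of all 7, and the log2 ratio of the day 14 pair was 3.09. NPPB, which encodes the related brain natriuretic peptide and lies beside NPPA in the genome, was 1413 and 978 FPKM, a log2 ratio of 0.73. Both neighbours were called higher in aMHC+, but by ratios of very different size. Of the list of hormones, EDN1, which encodes the vasoconstrictor endothelin 1, was lower in aMHC+, at 12.1 against 22.9 FPKM. SST, which encodes somatostatin and was chosen after its values were seen, was abundant in both, at 278 and 394 FPKM.

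Sarcomere genes were read from 3 lists, for thick filaments, thin filaments, and Z-discs with titin, 63 genes in all. They made up 6.5% of the FPKM sum of the compared genes, small RNA and histone genes left out, in aMHC+ and 3.03% in aMHC-. Of the 41 at 5 FPKM or more, 22 were called higher in aMHC+ and 2 lower, against 1.51% and 1.39% of all such genes. The 22 include MYH6, the gene that the sort gate reports. The lists were chosen with earlier results of these data known, so the contrast is a description and not a test.

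Thick filament genes had a median log2 ratio of 1.5 over 11 members, and all 11 were above 0. Of the 8 at 5 FPKM or more, 7 were called higher. MYL3, the essential light chain of ventricular myosin, was 222 FPKM in aMHC+ and 38.3 in aMHC-, 262 and 5.73 in the day 7 NKX2-5+ and NKX2-5- libraries, and at most 1.36 in the others (log2 ratio 2.70). The aMHC- library lay between the day 7 fractions. MYH7, the slow myosin heavy chain, was 50.5 and 10.2 FPKM (2.39), a larger ratio than for MYH6. The sequences of MYH6 and MYH7 are close enough that short reads could have been split between them either way. MYL7, the atrial regulatory light chain, was, small RNA and histone genes aside, the most abundant RNA of aMHC+ at 3082 FPKM, against 980 in aMHC-, 1011 in day 7 NKX2-5+, 339 in day 7 NKX2-5-, 7.29 and 1.47 on day 3, and 0 in hESC. It was higher in aMHC+ than in every other library, with a log2 ratio of 1.85 over aMHC-. MYL4, the atrial essential light chain, was 808 and 481 FPKM (0.95), and MYBPC3, the myosin binding protein C of heart, 33.3 and 13.7 (1.41).

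Thin filament genes were led by the troponins. TNNI3, the adult heart inhibitory troponin, was 32.7 FPKM in aMHC+ and 7.01 in aMHC-, with 34.8 and 7.46 in the day 7 NKX2-5+ and NKX2-5- libraries, and 11.4 in hESC (log2 ratio 2.26 for the day 14 pair). Its fetal counterpart TNNI1 was 132 and 64.8 FPKM (1.21). TNNC1, the calcium-binding troponin, was 626 and 213 FPKM (1.75), and TNNT2, which ties troponin to tropomyosin, 1133 and 535 (1.28). The cardiac actin gene ACTC1 was 902 and 383 FPKM (1.43) and the skeletal actin gene ACTA1 570 and 281 (1.22), with the caution that actin genes share much of their sequence. Tropomyosins did not pass the size rule. TPM1, second in abundance only to MYL7 in aMHC+, was 3075 and 2608 FPKM (0.44), and TPM2 was 296 and 342. In all, 6 of the 13 thin filament genes at 5 FPKM or more were called higher and 0 lower, with a median ratio of 1.22 over 14 members.

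Z-disc genes went in both directions. Titin (TTN), the spring that spans the sarcomere from Z-disc to M-line, was 116 and 33.9 FPKM (1.94). CSRP3, the muscle LIM protein, was 45.1 and 13.6 (1.86), the actin cross-linker ACTN2 38.0 and 11.5 (1.83), SYNPO2L 66.9 and 22 (1.76), and LDB3, which binds alpha-actinin, 49.6 and 19 (1.53). In total 9 of 20 members at 5 FPKM or more were called higher. The 2 that were called lower in aMHC+ were FLNC, the filamin of muscle, at 42.9 and 85.6 FPKM (-0.78), and ACTN1, the nonmuscle alpha-actinin, at 28.3 and 54.2 (-0.72). Within the actinins, the muscle gene was thus higher and the nonmuscle gene lower in aMHC+. The nonmuscle filamin gene FLNA was also lower, at 46.7 and 104 FPKM (-0.94).

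**Figure D2:**
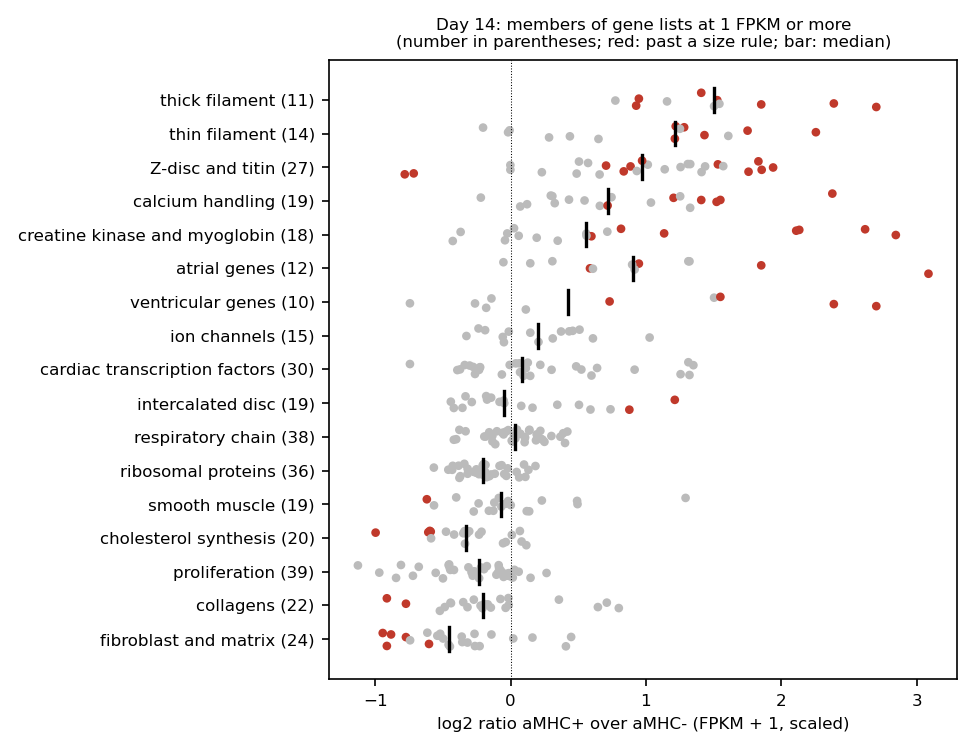
Log2 ratio of aMHC+ over aMHC- (FPKM + 1, scaled) for the members of 17 gene lists at 1 FPKM or more in either library, 1 library each; a point is a gene, red points passed a size rule, and the bar is the list's median. The thick filament median lies at 1.5 and the respiratory chain median at 0.03, and the fibroblast and matrix list at -0.45 is the lowest drawn.

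Calcium handling genes had a median ratio of 0.72 over 19 members. Of the 11 at 5 FPKM or more, 6 were called higher, against 1.51% of all such genes. One of the 6 is MYBPC3, which this list shares with the thick filament list and which was counted there too; the other 5 are TRDN, PLN, SLC8A1, ATP2A2 and ASPH. TRDN, which encodes triadin of the calcium release complex, was 13.0 and 2.01 FPKM (2.38). In FPKM as deposited, its RNA was not limited to the cardiac libraries. It was 13.8 in day 3 CD13+/ROR2+, 22.8 in day 3 CD13-/ROR2-, 3.89 in hESC and 24.1 in day 7 NKX2-5+. PLN, the brake on the calcium pump, was 46.9 and 17.7 (1.55), the sodium-calcium exchanger SLC8A1 32.5 and 12.3 (1.52), and the pump itself, ATP2A2, 78.1 and 38.4 (1.2). The release channel RYR2 was 7.90 and 2.97 FPKM, under the minimum of the 1.5-fold rule. Of the 6 ion channel genes of the surface membrane at 5 FPKM or more, 0 were called, a count too small to set against 1.51% and 1.39% of all such genes, with HCN4, the pacemaker channel, at 19.5 and 16.3 FPKM and KCNH2 at 16.5 and 19.2 (both chosen after their values were seen). CACNB2, a subunit of the L-type calcium channel, was 5.18 and 2.38 FPKM and had the largest ratio of that list, 1.03.

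Several genes of muscle energy supply were called higher in aMHC+, and no gene of the general respiratory chain was called. COX6A2, the heart and skeletal muscle subunit of cytochrome oxidase, was 40.2 FPKM in aMHC+, 5.50 in aMHC-, 27.1 in day 7 NKX2-5+ and listed at 0 in day 7 NKX2-5- and both day 3 libraries (2.85 for the day 14 pair). The muscle creatine kinase CKM was 29.9 and 4.70 FPKM (2.62), the muscle phosphoglycerate mutase PGAM2 17.2 and 3.68 (2.13), and myoglobin (MB), the oxygen store of muscle, 16.1 and 3.45 (2.11). FABP3, the heart fatty acid binding protein, was 43.9 and 22.4 (1.14). Of the 16 genes of this list at 5 FPKM or more, 7 were called higher, against 1.51% of all such genes. The list's median was 0.56 over 18 members. The 38 respiratory chain genes had ratios from -0.42 to 0.42. For a list of this size, 0 called is near the 1.51% higher and 1.39% lower of all such genes. Of 24 glycolysis genes at 5 FPKM or more, 3 were called higher (PGAM2, ENO3 and PDK1) and 2 lower, against 1.51% and 1.39% of all such genes. The glycolysis median was -0.02 over 26 members. PGAM2 and ENO3 were also among the 7 called of 16 given above. Of the enolase genes of the glycolysis list, ENO3, the muscle form, was called higher at 76.3 and 49.3 FPKM (0.82), and ENO1, the form of most tissues, lower at 209 and 383 (-0.67). The neuronal form ENO2, chosen after its values were seen, was 17.6 and 25.5 FPKM (-0.32) and not called.

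Of 21 cardiac transcription factors at 5 FPKM or more, 0 were called. Over all such genes 1.51% were called higher and 1.39% lower, so 0 in a list of this size is near those shares. The median ratio over 30 members was 0.08. GATA4 was 47.6 and 53.2 FPKM, HAND2 56.7 and 76.5, ISL1, a marker of second heart field progenitors, 17.4 and 20.1, and MYOCD, the muscle coactivator of SRF, 39.2 and 31.9 (these 4 were chosen after their values were seen). The largest ratios of that list belonged to genes that met no size rule. IRX1 was 2.69 and 0.56 FPKM (1.35), and TBX5, a regulator of the atria and left ventricle, 9.27 and 3.62 (1.32). FHL2, also on the Z-disc list and chosen after its values were seen, was 20.6 and 9.29 FPKM (1.26). For TBX5 and FHL2 the aMHC- level was under the minimum that the rule for smaller ratios sets for both libraries. The count of 0 called thus does not mean that no gene of the list differed.

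Atrial and ventricular lists were read side by side. Of 7 atrial genes at 5 FPKM or more, 4 were called higher (NPPA, MYL7, MYL4 and PAM), with a median ratio of 0.91 over 12 members. Of 9 ventricular genes, 4 were called higher (MYL3, MYH7, PLN and NPPB), with a median of 0.42 over 10 members. Over all genes at 5 FPKM or more, 1.51% were called higher. NR2F2, a transcription factor of atrial muscle, was 4.18 and 1.29 FPKM, and MYL2, the ventricular regulatory light chain, was 1.83 and 0.05 FPKM (MYL2 was chosen after its values were seen). Called genes of both lists were thus higher in aMHC+, but 4 of the 10 ventricular members were below 0, with a lowest ratio of -0.74. Of the 12 atrial members, 1 was below 0. All of the 8 called genes except PAM also stand on the sarcomere, calcium handling or hormone lists counted above.

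**Figure D3:**
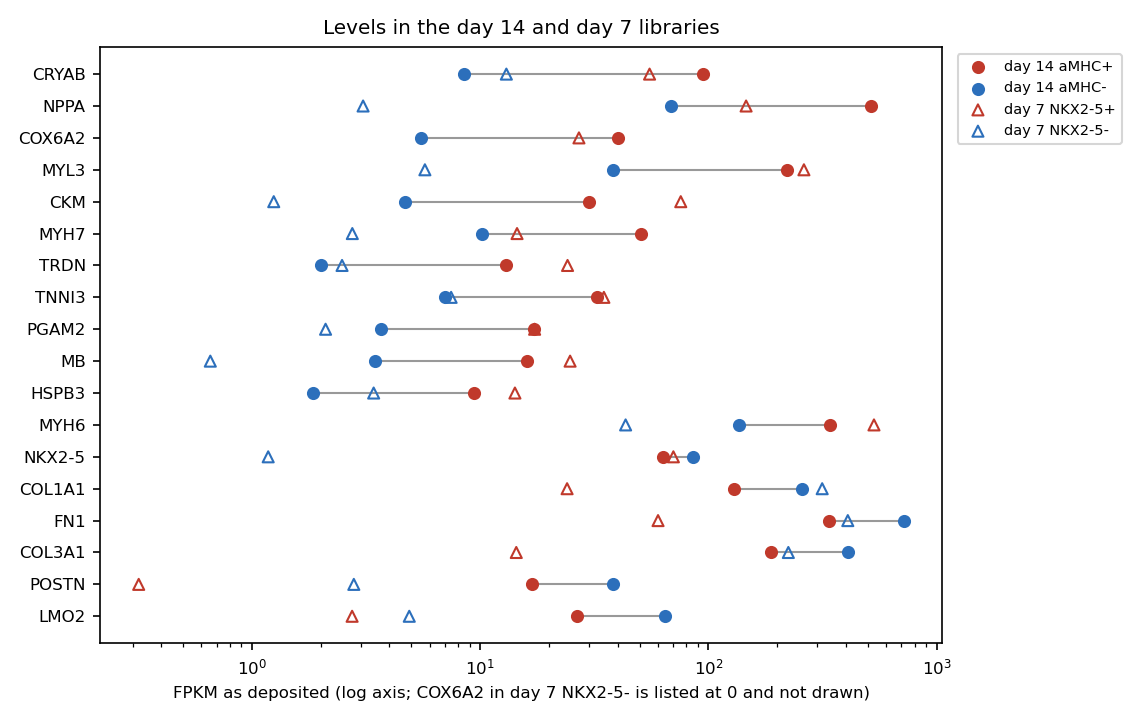
FPKM as deposited (log axis) of 18 genes in the day 14 aMHC+ and aMHC- libraries (filled circles, joined by a line) and in the day 7 NKX2-5+ and NKX2-5- libraries (open triangles), 1 library each. For NPPA the day 14 pair is 514 against 68.5, NKX2-5 is close in the day 14 pair at 63.2 and 85.5, and for COL3A1 the aMHC- library is the highest, at 409.

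Genes lower in aMHC+ differed by smaller ratios, the largest being -1.06 among the 78 called. Among the lists, that of fibroblast and matrix genes had the most called lower. COL3A1, a fibrillar collagen, was 188 FPKM in aMHC+, 409 in aMHC-, 14.4 in day 7 NKX2-5+, 224 in day 7 NKX2-5- and at most 0.21 in the earlier libraries (-0.91). Both day 14 libraries thus held far more COL3A1 than day 7 NKX2-5+ cells. COL1A1 was 130 and 256 FPKM (-0.77), fibronectin (FN1) 338 and 716 (-0.88), and periostin (POSTN), a matrix protein of the cushions and of fibroblasts, 16.9 and 38.3 (-0.94). Of 17 fibroblast and matrix genes at 5 FPKM or more, 5 were called lower and 0 higher, against 1.39% and 1.51% of all such genes. Of 24 members, 20 were below 0. With equal sums of all genes, MIR593 included, COL3A1, COL1A1 and FN1 kept their sign and were no longer past 1.5-fold. Among collagens 2 of 14 at 5 FPKM or more were called lower, COL3A1 and COL1A1, which the fibroblast and matrix list also holds. COL1A2, the partner chain of COL1A1, was 21.6 and 31.2 FPKM (-0.32). The matrix-associated genes PLAT, the tissue plasminogen activator, at 29.7 and 60.8 FPKM, and THBS1, a thrombospondin, at 29 and 52.8, were also called lower. They were the 2 of 26 called on the list of matrix glycoproteins and remodelling, a small count beside the 1.39% lower of all such genes. That list had a median of -0.12 with 11 of 36 members above 0 and a highest ratio of 0.79.

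Signalling genes among the lower ones included GDF6, a BMP ligand, at 11.9 and 26.9 FPKM (-0.93), and SMAD6, an inhibitor and target of BMP signalling, at 18.7 and 41.1 (-0.90). They were the 2 of 19 called on the BMP and TGF-beta list, a small count beside the 1.39% lower of all such genes. That list had a median of -0.22, with 6 of 25 members above 0 and a highest ratio of 0.94. Its median turned to 0.10 with equal sums of all genes, MIR593 included. IGFBP2, a carrier of insulin-like growth factors, was 46.2 and 92.6 FPKM (-0.79). It was the only 1 called of 14 on the IGF and imprinted list, where 6 of 20 members were above 0. CXCL12, a chemokine, was 72.8 and 148 FPKM (-0.81), and the proteoglycan GPC3 280 and 522 (-0.70), both chosen after their values were seen. The gene with the lowest ratio of all well expressed genes was LMO2, a transcriptional adaptor best known from blood and endothelial progenitors. It was 26.4 FPKM in aMHC+, 64.7 in aMHC-, 2.75 in day 7 NKX2-5+, 4.89 in day 7 NKX2-5-, 2.46 in hESC and at most 1.49 on day 3. Both day 14 libraries were above all others for LMO2, though the sums of endothelial and blood markers given above were low. FLT1, an endothelial list gene outside those markers, was 8.07 and 5.69 FPKM (0.61) and not called. LMO2 was the only 1 called of the 3 genes of that list at 5 FPKM or more. Of the 6 list members at 1 FPKM or more, 2 were above 0.

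A few cytoskeletal and membrane lipid genes were lower as well. LASP1, an actin-binding protein, was 23.0 and 52.0 FPKM (-0.95), the neuronal tubulin TUBB3 24.8 and 49.6 (-0.78), and CSRP1, a LIM protein of smooth muscle, 31.1 and 55.5 (-0.62). The related muscle LIM protein CSRP3 was higher in aMHC+. CSRP1 was the only 1 called of the 15 smooth muscle genes at 5 FPKM or more. That list had a median of -0.07 with 7 of 19 members above 0, so it did not go lower as a set. Of 19 cholesterol and lipid synthesis genes at 5 FPKM or more, 4 were called lower, against 1.39% of all such genes. DHCR7, which makes the last step to cholesterol, was 13.1 and 31.1 FPKM (-1.0), and the desaturase SCD 73.3 and 129 (-0.61).

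Of 17 proliferation genes at 5 FPKM or more, 0 were called, which is near the 1.51% higher and 1.39% lower of all such genes. Of 39 members, 34 were below 0, with a median of -0.23 against a median of 0.00 over all genes of at least 1 FPKM. Housekeeping genes lay nearly as low, with a median of -0.20 and 13 of 18 members below 0. Of these, POLR2A, the largest subunit of RNA polymerase II, was called lower, at 10.8 and 24.9 FPKM (-0.95). UBE2C, which acts in mitotic exit, was 4.65 and 11.5 FPKM, and TK1, a thymidine kinase, 1.04 and 3.89. MKI67 was 0.64 and 1.91 FPKM and PCNA 11.6 and 13.7 (both chosen after their values were seen). The median of the list turned to 0.03 with equal sums of all genes, MIR593 included, and so did the sign of NKX2-5 (0.10). Ribosomal protein genes had a median of -0.20, which turned to 0.13 under that scaling. Of 36 members 0 were called, also near the shares over all genes.

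Some calls rest on single libraries or shared reads. LANCL1 was 6.77 FPKM in aMHC+ and listed at 0 in aMHC-, while all other libraries held 5.72 to 8.04. PCNA-AS1 was 7.03 FPKM in aMHC+ and 0 in aMHC-, and since the library kit does not mark strand, its reads cannot be told from those of the overlapping gene PCNA. These 2 were the only genes of at least 5 FPKM in one fraction and 0 in the other, and no fold is given for them. Without genes listed at 0, 13 were 4-fold higher. Without scaling, MB, PGAM2, HSPB3 and PPP1R14C fell short of 4-fold, and 11 of the 15 stayed past it. Outside the lists, 38 of the 70 genes 1.5- to 4-fold higher and 52 of the 78 lower were on none. They include, among those chosen after their values were seen, PPP1R12B, a myosin phosphatase subunit, at 43.9 and 17.5 FPKM, the nuclear RNA MALAT1 at 722 and 428, and POPDC2 at 55.7 and 42.2 and BVES at 28.1 and 19.6, which are popeye domain proteins of muscle membranes.

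Promoter sequences were read to see what the higher genes share. NPPA, MYL7, ACTC1, TNNI3 and COX6A2 are shown because they are among the muscle genes called higher and their promoters hold matches to elements bound by GATA factors, SRF or MEF2 factors, known regulators of heart muscle genes. Each line gives the 250 bases before the RefSeq start site on GRCh38.p14, 5′ to 3′ on the gene's strand, which is minus for all 5. Capitals mark matches to GATA elements (TGATAA or AGATAA), the CArG box, the MEF2 box, the MCAT element CATTCC or TATAAA, on either strand.
NPPA: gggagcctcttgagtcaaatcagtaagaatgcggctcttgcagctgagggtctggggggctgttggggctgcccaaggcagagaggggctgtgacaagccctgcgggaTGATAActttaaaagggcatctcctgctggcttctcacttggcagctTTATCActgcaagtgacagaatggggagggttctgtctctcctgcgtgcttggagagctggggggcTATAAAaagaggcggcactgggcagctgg
MYL7: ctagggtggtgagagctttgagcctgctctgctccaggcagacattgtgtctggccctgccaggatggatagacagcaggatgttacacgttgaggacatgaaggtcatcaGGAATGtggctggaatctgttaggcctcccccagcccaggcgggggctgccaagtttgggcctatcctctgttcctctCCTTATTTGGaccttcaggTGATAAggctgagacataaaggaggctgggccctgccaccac
ACTC1: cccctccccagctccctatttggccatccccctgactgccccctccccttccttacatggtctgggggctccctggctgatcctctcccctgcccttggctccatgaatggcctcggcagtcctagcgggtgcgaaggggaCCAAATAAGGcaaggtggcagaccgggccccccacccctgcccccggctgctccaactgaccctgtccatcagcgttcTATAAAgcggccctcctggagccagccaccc
TNNI3: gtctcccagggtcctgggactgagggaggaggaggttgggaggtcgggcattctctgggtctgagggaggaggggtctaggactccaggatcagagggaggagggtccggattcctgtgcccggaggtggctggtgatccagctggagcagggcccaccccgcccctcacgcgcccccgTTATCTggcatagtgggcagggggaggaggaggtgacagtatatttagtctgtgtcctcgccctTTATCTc
COX6A2: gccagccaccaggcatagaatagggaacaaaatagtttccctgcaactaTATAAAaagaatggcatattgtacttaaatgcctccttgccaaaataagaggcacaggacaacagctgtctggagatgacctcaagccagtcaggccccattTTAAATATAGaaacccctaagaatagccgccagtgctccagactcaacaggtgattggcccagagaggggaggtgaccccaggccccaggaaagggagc
These stretches are chr1:11847784-11848033 for NPPA, chr7:44141333-44141582 for MYL7, chr15:34795550-34795799 for ACTC1, chr19:55157733-55157982 for TNNI3 and chr16:31428361-31428610 for COX6A2, each upstream of its gene. In NPPA the GATA elements begin at -142 and -95 and TATAAA at -29, counted from the start site. In MYL7 a CArG box, the element of SRF, spans -61 to -52 with a GATA element at -42, and in ACTC1 a CArG box spans -109 to -100. In TNNI3 the GATA elements begin at -71 and -7. In COX6A2 a MEF2 box spans -99 to -90.

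Of the called genes, 13 of the 15, 51 of the 70 and 62 of the 78 lower ones had a promoter in the RefSeq table. A GATA element stood in 3 of the 13 promoters (23.1%), in 13 of the 51 (25.5%), in 2 of the 62 of lower genes (3.23%), in 6.52% of the 1964 promoters of genes of at least 10 FPKM in both libraries, and in 14.9% of all 27305. Those 3 were NPPA, TNNI3 and C1orf105, and the 2 were FRZB and PFDN1. The MEF2 box stood in 3 of 13 (23.1%), 6 of 51 (11.8%) and 1 of 62 (1.61%), against 1.58% of well expressed genes and 2.90% of all. The 3 were COX6A2, HSPB3 and LANCL1, and the 1 was POSTN. The call of LANCL1 rests on a value listed at 0 in aMHC-. A CArG box was found in 0 of 13, in 6 of 51 (11.8%) and in 3 of 62 (4.84%), against 1.99% and 1.14%. The 3 with a CArG box among lower genes were FLNA, IGFBP2 and MPZL1. FRZB, PFDN1 and MPZL1 are named after their values were seen. The MCAT element was in 23.1%, 17.6% and 12.9%, against 9.42% and 11.9%. AAGTG, the core bound by NKX2-5, was in 38.5%, 27.5% and 25.8% of the promoters of the 3 sets, against 35% of well expressed genes and 37.9% of all, so its shares lay near or below the background. The E-box CANNTG was in 76.9%, 68.6% and 43.5%, against 51.5% and 62.2%. TATAAA was in 30.8%, 11.8% and 3.23%, against 6.36% and 11.1%, and its letters can overlap a MEF2 box. At least 1 element for GATA, MEF2 or SRF was held by 6 of 13, 22 of 51 and 6 of 62 promoters (46.2%, 43.1% and 9.68%), against 9.52% of well expressed genes and 17.8% of all. A match is a description of the letters, and no binding was measured.

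**Figure D4:**
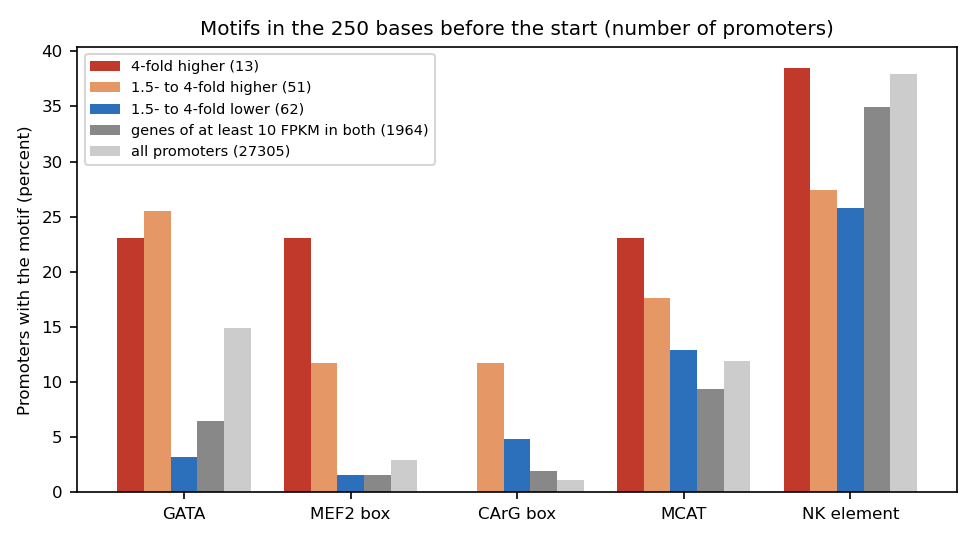
Percent of promoters with at least 1 match in the 250 bases before the start, for the 3 sets of called genes, genes of at least 10 FPKM in both libraries and all promoters; MCAT and NK element are the motifs CATTCC and AAGTG of the text. GATA elements and MEF2 boxes stand in larger shares of the higher sets (23.1% and 25.5% for GATA) than of the lower set (3.23%), and the NK element in similar shares of all sets.

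The day 7 pair, NKX2-5+ against NKX2-5-, shares no library with the day 14 pair, and its ratios were read for the same genes. Of the 15 genes 4-fold higher in aMHC+, 14 were above 0 and 12 were called higher on day 7. There, 6.94% of tested genes were called higher by either rule and 6.17% lower, with 2.59% and 3.34% by the 4-fold rule and 15.6% and 10.1% by the 1.5- to 4-fold rule. The exception was PCNA-AS1, listed at 0 in both day 7 libraries. Of the 70 genes 1.5- to 4-fold higher, 65 were above 0 and 46 were called higher. Of the 78 lower genes, 66 were below 0 and 24 were called lower on day 7, and 1, FLNC, was called higher. Among the 2425 well expressed genes within 1.5-fold on day 14, 44.9% were above 0 on day 7. Ratios were larger on day 7, as the median of the 15 genes was 2.91 and that of the 70 was 1.6. Across 1308 genes of at least 10 FPKM in all 4 libraries the 2 ratios correlated at Pearson r = 0.503 and Spearman rho = 0.409, across genes and so not over independent replicates. FLNC was one exception, at 0.64 on day 7 and -0.78 on day 14, and ANKRD1, a stretch-responsive Z-disc gene, another, at -0.58 and 0.89.

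**Figure D5:**
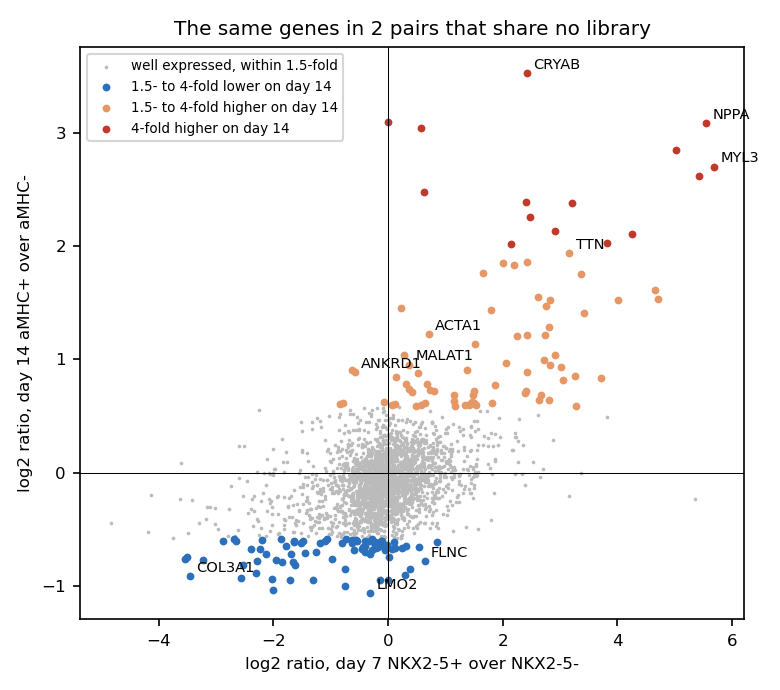
Log2 ratio of the day 14 pair against that of the day 7 pair (FPKM + 1, each pair scaled), 1 library per fraction; a point is a gene, coloured by its day 14 call. The genes higher in aMHC+ lie mostly to the right of 0 (65 of 70 and 14 of 15) and the lower genes mostly to the left (66 of 78), with FLNC and ANKRD1 on the other side.

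Levels were then ordered across the libraries after scaling all 7 by the median gene. For 9 of the 15 and 40 of the 70 higher genes, the aMHC- library lay between day 7 NKX2-5- and day 7 NKX2-5+. The size rules had picked these genes for less in aMHC- than in aMHC+, which bears on this order. The same order was not counted over all genes. The aMHC- level was above day 7 NKX2-5- for 55 of the 70 genes. The aMHC+ library lay below day 7 NKX2-5+ for 10 of the 15 and 42 of the 70 genes, but this order rests on the scaling, which raises day 7 NKX2-5+. In FPKM as deposited, 8 of the 15 and 26 of the 70 were higher in day 7 NKX2-5+ than in aMHC+, no longer a majority of the 70. NPPA, CRYAB, MYH7 and MYL7, in contrast, had higher FPKM in aMHC+ than in day 7 NKX2-5+, and CKM, at 75.7 FPKM in day 7 NKX2-5+, had a lower one. Of the 78 lower genes, 40 were highest of all 7 libraries in aMHC-, 26 in hESC or a day 3 library, and 11 in day 7 NKX2-5-. These genes were picked for more in aMHC- than in aMHC+, so aMHC+ could not be the highest. These counts are a description, with no share over all genes to set them against.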

How the data were processed

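RNA of the sorted cells was sequenced from libraries of a kit that does not mark strand, per the labels' protocols. The authors deposited 1 table of FPKM values per gene and library, made with Cufflinks on hg19 per the submitters' processing notes; aligner, gene annotation and versions: not given in the sources used here. Of 23368 rows, 106 with blank cells and 1683 small RNA and histone symbols were left out, and 21579 genes were compared in Python 3.11.15 with pandas 2.3.3. Values under 1e-06 were read as 0. Each pair was scaled by its median gene and compared as log2(FPKM + 1), which understates differences of low genes. The scripts were tested on simulated data. With 1 library per group no test was made. The members and the 46 gene lists were chosen with earlier results of these data known. Genes were named by rule: sort genes and markers, up to 4 called members of each list (or 2 as values where fewer than 2 were called), the 15 highest and 15 lowest ratios, the 10 highest and 10 lowest among well expressed genes, genes at 0 in one library, and the 10 most abundant in each. Most others are said to be chosen after their values were seen, or are among the markers, the sequences shown or the day 7 exceptions. HSPB7, C1orf105, LDB3, TNNI1, ACTA1, TPM2, ACTN1, ATP2A2 and ASPH were also chosen after their values were seen. Motifs were searched in RefSeq promoters of GRCh38.p14, a build other than that of the values, matched by symbol only. Alternatives were other pseudocounts, scalings and minimum levels. A few genes that the rule names are not reported here.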

Additional observations from a re-analysis of the deposited data

How the results depend on the processing

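The count of genes 4-fold higher, 15, was 5 with a pseudocount of 5 and 59 with equal sums of all genes, small RNA and histone genes kept. That last scaling also gave 20 genes 4-fold lower, 274 genes 1.5- to 4-fold higher and 11 lower. Without scaling 39 genes were 1.5- to 4-fold higher and 315 lower. At least 5 FPKM in both gave 132 and 124, at least 20 FPKM in both gave 31 and 42, and a pseudocount of 5 gave 44 lower; the stricter and looser minimum test fewer and more genes by construction, and for the other settings the cause was not tested. The other 22 counts were within 1.5 times. No called gene changed sign under any scaling or pseudocount. The list median for thin filament was 0.54 over all members. Calcium handling was 0.37 with a pseudocount of 5, 0.53 without scaling and 0.55 over all members, and atrial genes 0.49 with a pseudocount of 5, so these lists fell below the 1.5-fold limit there. The blood list, 2 members at -0.66, was -0.31 with a pseudocount of 5, -0.42 with equal sums of all genes and 0 over all members, and the list of skeletal muscle regulators, 1 member at 2.43 (TNNC2), was 0 over all members. The thick filament and Z-disc lists stayed past the limit under every alternative. Of 46 list medians, 8 changed sign without scaling, 4 with equal sums, 1 with scaling over all libraries and 20 with equal sums of all genes, none of them past the limit before. No paired analysis was possible because each group has 1 library. Depth limits values near 1 FPKM most, since they rest on few reads.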

Other observations

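Transcript length and GC content, read from GENCODE v29 transcripts for 2386 of the well expressed genes, had rank correlations of -0.02 and -0.05 with the log2 ratio of the day 14 pair, given as a description across genes. The retinoic acid list had a median of 0.13 over 14 members with none called, and HOX genes one of -0.04 over 9. The NOTCH list was below 0 for 11 of 12 members, with a median of -0.32 and none of 9 called; NOTCH3 was 7.54 FPKM in aMHC+ and 13.3 in aMHC-. Immediate early genes, which respond to handling and dissociation, had a median of 0.04 over 22 members, and none of 17 was called. For lists of these sizes, 0 called is near the 1.51% higher and 1.39% lower of all genes at 5 FPKM or more. MIXL1, a gene of early mesoderm named as 1 of the 15 lowest ratios, was 2.43 FPKM in aMHC+ and 8.58 in aMHC-. It was 210 FPKM in day 3 CD13+/ROR2+. It met no size rule, and early mesoderm genes were not read as a list.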
